A study of Mus musculus with 6 samples.

Results

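Dlx1, Dlx2, Dlx5, Dlx6, Lhx6, Six3, Sp8 and Sp9 encode transcription factors that are best known from GABAergic neurons and the anterior forebrain. These 8 genes were taken by name, with no measured value in the rule, from the 26852 genes of a table made from RNA of dissected E14.5 mouse midbrain. They were chosen with earlier results of these data known. The series compared Lmx1b cKO embryos (Lmx1b fl/fl;Pitx3-Cre) with control embryos (Lmx1b wt/wt;Pitx3-Cre) on a C57Bl/6 background (C57BL/6J in the study's methods), with 3 libraries of each genotype and 2 pooled embryos in each library. Both groups carried the Cre, which sits in the Pitx3 locus and takes the place of a Pitx3 allele, so the groups differed in the floxed Lmx1b alleles and not in the Cre or in the Pitx3 dose. Pitx3 is expressed in meso-diencephalic dopaminergic (mdDA) neurons. Where the Cre recombined, and what share of the dissected tissue those cells made up, was not measured here. Lmx1b itself, a LIM-homeodomain factor, is also expressed outside that domain. The authors deposited the mean normalized count per group, that is, reads divided by a size factor for each library, and the whole read counts behind each mean were recovered by a search over whole numbers. Which of the submitted samples each recovered library is cannot be said, only its genotype, and the libraries of a group are named replicate a, b or c from the largest size factor to the smallest.

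DLX proteins are homeodomain factors related to Drosophila Distal-less, and their genes lie in convergent pairs that share enhancers. In the embryonic ventral telencephalon Dlx1 and Dlx2 are switched on in dividing progenitors and Dlx5 and Dlx6 mainly in cells that leave the cycle, and all are also expressed in the ventral thalamus and hypothalamus. They drive genes for GABA synthesis and the migration of interneurons. Lhx6 is a LIM-homeodomain factor of interneurons from the medial ganglionic eminence, Sp8 and Sp9 are zinc finger factors of the lateral and caudal eminences, and Six3 is a homeodomain factor of the anterior neural plate, the eye and the striatum. GABAergic neurons of the midbrain use another set of factors, with Gata2, Gata3, Tal1 and Helt among them.

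In GRCm38, Dlx1 (ENSMUSG00000041911, chromosome 2, 71528113 to 71533981, plus strand) and Dlx2 (ENSMUSG00000023391, 71543408 to 71546754, minus strand) face each other across 9426 bases. Dlx6 (ENSMUSG00000029754, chromosome 6, 6863334 to 6868568, plus strand) and Dlx5 (ENSMUSG00000029755, 6877805 to 6882085, minus strand) form the other pair, with 9236 bases between them. Sp9 (ENSMUSG00000068859, chromosome 2, 73271925 to 73284706, plus strand) lies 1725170 bases from Dlx2. Lhx6 (ENSMUSG00000026890, 36081953 to 36105408, minus strand) is on the same chromosome, Sp8 (ENSMUSG00000048562, 118846329 to 118852576, plus strand) on chromosome 12 and Six3 (ENSMUSG00000038805, 85613608 to 85629302, plus strand) on chromosome 17.

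The homeobox codes for the DNA-binding domain that all 4 Dlx proteins share, and it is shown because reads of such closely related genes have to be told apart for the values below. Each is the coding sequence of 180 bases, in 2 exon segments, read 5′ to 3′ from the GENCODE M21 transcripts. The capitals mark the 12 bases for the residues WFQN in the recognition helix, where the tryptophan is residue 48 of the 60 of the homeodomain.
Dlx1: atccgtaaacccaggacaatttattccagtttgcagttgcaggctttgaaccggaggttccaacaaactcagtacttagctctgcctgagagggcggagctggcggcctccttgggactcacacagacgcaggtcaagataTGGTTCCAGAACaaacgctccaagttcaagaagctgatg
Dlx2: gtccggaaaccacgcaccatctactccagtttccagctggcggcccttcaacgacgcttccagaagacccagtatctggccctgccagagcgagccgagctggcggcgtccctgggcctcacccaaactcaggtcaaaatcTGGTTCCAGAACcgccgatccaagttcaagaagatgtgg
Dlx5: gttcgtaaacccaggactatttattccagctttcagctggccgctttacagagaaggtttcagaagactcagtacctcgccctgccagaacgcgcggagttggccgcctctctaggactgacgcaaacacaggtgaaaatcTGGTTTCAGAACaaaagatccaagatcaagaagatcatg
Dlx6: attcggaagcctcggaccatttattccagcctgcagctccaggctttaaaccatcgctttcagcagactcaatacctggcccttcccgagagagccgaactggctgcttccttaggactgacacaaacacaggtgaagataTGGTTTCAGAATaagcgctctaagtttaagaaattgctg
The segments lie at 71531025 to 71531156 and 71532264 to 71532311 of chromosome 2 for Dlx1, and at 71544877 to 71544924 and 71545384 to 71545515 for Dlx2. On chromosome 6 they lie at 6878441 to 6878488 and 6879526 to 6879657 for Dlx5, and at 6865140 to 6865271 and 6867041 to 6867088 for Dlx6. Between 71.1% (Dlx2 and Dlx6) and 76.7% (Dlx1 and Dlx6) of the bases were identical. Neighbours on the chromosome were not the closest by sequence: identity was 73.9% for Dlx1 with Dlx2 and 73.3% for Dlx5 with Dlx6. The longest run of identical bases between transcripts of any 2 Dlx genes was 23 (Dlx2 and Dlx6), and over all pairs of the 8 genes it was 44 (Dlx6 and Six3, and Sp8 and Sp9).

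The 250 bases before 3 transcription starts are shown as well, because these starts belong to a gene of each Dlx locus and to Lhx6, the member with the largest fitted difference over all 6 libraries. They are RefSeq starts on GRCm38.p6, read on the strand of the gene, 5′ to 3′. The first is Dlx2 (chr2:71546755-71547004, minus strand), the next is the most upstream start of Lhx6 (chr2:36105409-36105658, minus strand), and the last is the upstream start of Dlx6os1 (chr6:6869534-6869783, minus strand), an antisense transcript that starts in the gap between Dlx6 and Dlx5 and runs across the Dlx6 locus. Capitals mark matches to GGGCGG, the GC box read by SP factors, or to TAATTA, a common homeodomain motif, each searched on both strands, so that a GC box may read CCGCCC.
Dlx2: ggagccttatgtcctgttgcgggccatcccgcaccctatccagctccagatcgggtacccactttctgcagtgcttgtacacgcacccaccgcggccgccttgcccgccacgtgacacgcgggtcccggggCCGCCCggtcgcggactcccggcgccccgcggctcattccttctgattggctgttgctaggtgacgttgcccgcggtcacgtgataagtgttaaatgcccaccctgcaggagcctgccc
Lhx6: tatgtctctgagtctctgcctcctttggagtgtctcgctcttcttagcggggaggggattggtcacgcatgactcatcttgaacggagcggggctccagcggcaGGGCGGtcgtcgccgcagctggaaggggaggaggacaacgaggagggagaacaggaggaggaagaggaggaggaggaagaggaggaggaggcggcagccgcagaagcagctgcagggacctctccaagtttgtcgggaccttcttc
Dlx6os1: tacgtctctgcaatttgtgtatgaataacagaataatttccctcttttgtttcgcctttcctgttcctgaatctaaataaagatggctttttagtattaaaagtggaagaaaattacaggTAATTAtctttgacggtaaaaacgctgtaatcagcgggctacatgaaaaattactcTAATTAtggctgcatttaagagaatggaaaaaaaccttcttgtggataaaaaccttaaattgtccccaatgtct
Dlx2 and this start of Lhx6 each hold 1 match to GGGCGG and 0 to TAATTA, and this start of Dlx6os1 holds 2 matches to TAATTA and 0 to GGGCGG. The table has another start of Dlx6os1, not shown, which lies outside the gap and holds 1 match to TAATTA. Over all 32851 RefSeq promoters of this length, 32.7% hold GGGCGG and 4.84% hold TAATTA. A match describes the letters and is not evidence of binding. Of the 8 genes, 6 were found in the promoter table, and Dlx5 and Dlx6 were not.

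Between 19711032 and 23954501 recovered reads per library lay on the 26248 genes with recovered counts, and the 8 genes were read by 108 reads (Lhx6, control replicate b) to 1967 reads (Dlx1, cKO replicate b) per library. The tissue label was borne out by midbrain genes, with Nr4a2 at 3047 to 3484 and Th at 733 to 976 normalized counts in all 6 libraries. The total on Lmx1b did not check the genotypes, since the cKO libraries had 1257 to 1455 and the control libraries 1352 to 1474 normalized counts. The cKO replicates a and c stood apart in markers of bone and mesenchyme. In cKO replicate c, all 10 tested bone and mesenchyme markers had their highest level of the 6 libraries, with a summed level of 14533 where the control libraries had 810 to 937. The same sum was 2476 in cKO replicate a, where Col1a1, a collagen of bone, had 532 normalized counts against 10.6 to 11.5 in the controls, and 848 in cKO replicate b. The telencephalon markers were mixed, as 4 of the 7 tested had their highest level in cKO replicate b and the others in cKO replicate c or a control library. Among the 4 was Tbr1, of cortical glutamatergic neurons, with 336 normalized counts in cKO replicate b against 9.72 to 158 in the other libraries. Because the tissue was sequenced in bulk, fewer cells of a type and less RNA per cell cannot be told apart, and the amount of forebrain tissue that the dissection took along is not known.

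All 8 genes passed the minimum mean normalized count of 10 over the libraries and were tested. They all had a fitted log2 fold change above 0, that is, higher in the Lmx1b cKO, and 49.9% of the 16573 genes tested did so. The median of the 8 was 0.34 on the log2 scale and the median of all genes tested was -0.00016. In the limma fit over all genes, 4 of the 8 (Dlx1, Dlx5, Dlx6 and Lhx6) had an unadjusted p-value under 0.05 with the higher level in the cKO, where 1.19% of all genes tested did, and 0 had the higher level in the control, where 1.62% did (2.81% in either direction). After Benjamini-Hochberg adjustment over all genes tested, 0 of the 8 and 0 of all genes (0%) had an adjusted p-value under 0.05, and the adjusted p-value of each of the 8 was 1.00 (limma). For Dlx1, Dlx6 and Lhx6 every cKO library lay above every control library, where 3.89% of all genes tested did so and 7.7% had groups apart in either direction. The adjusted test therefore called no difference for any of the 8 genes, and the sizes below are given with their errors. Because the 8 genes were chosen with earlier results known, their shares beside those of all genes are a description and not a test. The libraries of each group came from separate pools of embryos of 4 litters, whose assignment to libraries is not given, so the p-values measure the spread between these libraries.

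**Figure D1:**
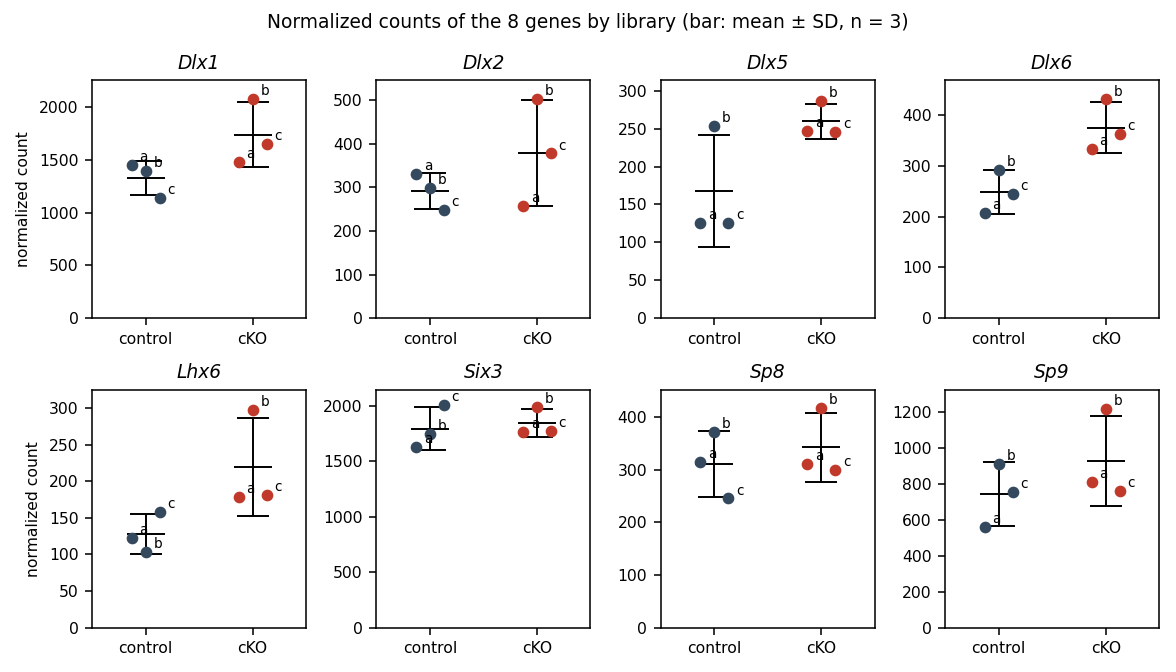
Normalized counts (vertical axes, reads divided by the size factor of the library) of the 8 genes in the 3 control (blue) and 3 cKO (red) libraries, lettered by replicate, with the mean and SD of each group as bars. For Dlx1, Dlx6 and Lhx6 the red points all lie above the blue ones, and cKO replicate b is the highest point of every panel except Six3.

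Dlx1, which acts in progenitors and later in interneurons, was the most abundant of the 4 Dlx genes. It had 1481, 2078 and 1651 normalized counts in the cKO (given, as throughout, for replicates a, b and c in turn) against 1450, 1393 and 1141 in the control. The groups did not overlap, but the lowest cKO library was only 1.02-fold above the highest control library. The cKO mean of 1737 ± 308 (SD, n = 3) was 1.31 times the control mean of 1328 ± 165. In limma the log2 fold change was 0.37 (standard error 0.12, 95% interval from 0.10 to 0.63), at place 80 of the 16573 genes tested by unadjusted p-value. That p-value was 0.0110, and the two-sided exact permutation test gave p = 0.1, below which 3 libraries against 3 cannot go. The estimate was 0.23 without cKO replicate b and 0.27 without control replicate c, and in both of these fits the unadjusted p-value was above 0.05, whereas it was under 0.05 in the other 4 fits that left out a library.

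Dlx2, the partner of Dlx1 in progenitors, had 258, 502 and 378 normalized counts in the cKO and 331, 298 and 248 in the control. The groups overlapped, because cKO replicate a lay below 2 of the control libraries. Its means of 379 ± 122 and 292 ± 41.5 gave a ratio of 1.30, which is close to that of Dlx1, but the spread in the cKO was wider. The log2 fold change was 0.30 (standard error 0.21, interval from -0.17 to 0.77), with an unadjusted p-value of 0.186 in limma and p = 0.3 in the exact permutation test. Without cKO replicate a it was 0.57, with an unadjusted p-value under 0.05, and without cKO replicate b it was 0.074, so single libraries decided its size. Dlx2 had 0.174, 0.241 and 0.229 normalized counts for each count of Dlx1 in the cKO libraries and 0.214 to 0.228 in those of the control. Only in cKO replicate a was the ratio outside the range from 0.214 to 0.241.

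Dlx5 and Dlx6, which are expressed as progenitors turn into neurons, had ratios of cKO to control that were larger than those of Dlx1 and Dlx2. Dlx6 had 334, 431 and 363 normalized counts in the cKO and 207, 293 and 245 in the control. The groups did not overlap, and the lowest cKO library was 1.14-fold above the highest control library. The means were 376 ± 50.1 and 248 ± 43.1 (SD, n = 3), a ratio of 1.51. Its log2 fold change was 0.60 (standard error 0.16, interval from 0.26 to 0.94), with an unadjusted p-value of 0.00228 in limma, place 16 of all genes tested, and p = 0.1 in the exact permutation test. Each of the 6 fits that left out a library gave an unadjusted p-value under 0.05, the highest being 0.0137, and the estimates were between 0.47, when control replicate a was left out, and 0.73, when control replicate b was.

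Dlx5 had 247, 286 and 246 normalized counts in the cKO, and 126, 254 and 125 in the control. Control replicate b reached the level of the cKO libraries, whereas the other control libraries had about the same, lower level. The cKO mean of 260 ± 23.0 was 1.54 times the control mean of 168 ± 74.0, and the coefficient of variation was 8.86% among the cKO libraries and 44.0% among those of the control. Its log2 fold change was 0.70 (standard error 0.23, interval from 0.20 to 1.21), with an unadjusted p-value of 0.0106 in limma, place 75, and p = 0.3 in the exact permutation test. The estimate was 1.04 without control replicate b, and the unadjusted p-value was above 0.05 without control replicate a (0.51) or control replicate c (0.55). The ratio of Dlx5 to Dlx6 was 0.742, 0.664 and 0.678 in the cKO and 0.607, 0.866 and 0.511 in the control, so the control libraries lay both above and below the cKO range. The normalized counts of the 4 Dlx genes summed to 2320, 3298 and 2637 in the cKO and 2114, 2237 and 1759 in the control.

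Lhx6, the factor of medial eminence interneurons, had the largest fitted difference of the 8 with all libraries and the lowest level per kilobase of exon. Dlx5 exceeded it without cKO replicate b (0.63 against 0.52). Without control replicate b both Dlx5 (1.04) and Dlx6 (0.73) exceeded it (0.62). Lhx6 had 179, 297 and 182 normalized counts in the cKO and 123, 104 and 158 in the control. The groups did not overlap, with cKO replicate b well above the rest and the other cKO libraries 1.13-fold or more above the highest control library. The means were 219 ± 67.3 and 128 ± 27.3 (SD, n = 3), a ratio of 1.71. Its log2 fold change was 0.76 (standard error 0.23, interval from 0.24 to 1.27), with an unadjusted p-value of 0.00757 in limma, place 53, and p = 0.1 in the exact permutation test. The estimate was 0.52 without cKO replicate b and 0.90 without control replicate c, and all 6 fits that left out a library had an unadjusted p-value under 0.05, the highest being 0.0355 without control replicate b.

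Sp9, a zinc finger factor of striatal projection neurons and interneurons, had 809, 1217 and 759 normalized counts in the cKO and 561, 914 and 755 in the control. The groups overlapped through control replicate b, which exceeded 2 of the cKO libraries. The means of 928 ± 251 and 743 ± 177 gave a ratio of 1.25, and the log2 fold change was 0.32 (standard error 0.19, interval from -0.091 to 0.74). The unadjusted p-value was 0.115 in limma and the exact permutation test gave p = 0.4. The estimate was 0.12 when either cKO replicate b or control replicate a was left out, and it was 0.44 without cKO replicate c and 0.49 without control replicate b, each of the latter with an unadjusted p-value under 0.05. Sp8, its close relative in olfactory bulb and caudal eminence interneurons, had 311, 417 and 299 normalized counts in the cKO and 314, 372 and 245 in the control. These groups overlapped over most of their range, and the means were 342 ± 65.2 and 310 ± 63.4. For Sp8 the log2 fold change was 0.13, with an interval from -0.24 to 0.51, the unadjusted p-value was 0.460 in limma and the exact permutation test gave p = 0.7. The estimate turned to -0.015 without cKO replicate b and to -0.012 without control replicate c.

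Six3, which is needed for the anterior brain and eye, had 1764, 1989 and 1774 normalized counts in the cKO and 1632, 1746 and 2004 in the control. It is the member whose highest library was a control library, and the groups overlapped fully. The means of 1842 ± 127 and 1794 ± 190 gave a ratio of 1.03. Its log2 fold change was 0.047 (standard error 0.082, unadjusted p-value of 0.580 in limma, p = 0.6 in the exact permutation test), and its interval ran from -0.13 to 0.23. Without cKO replicate b it was -0.0087, and without control replicate a it was -0.022.

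**Figure D2:**
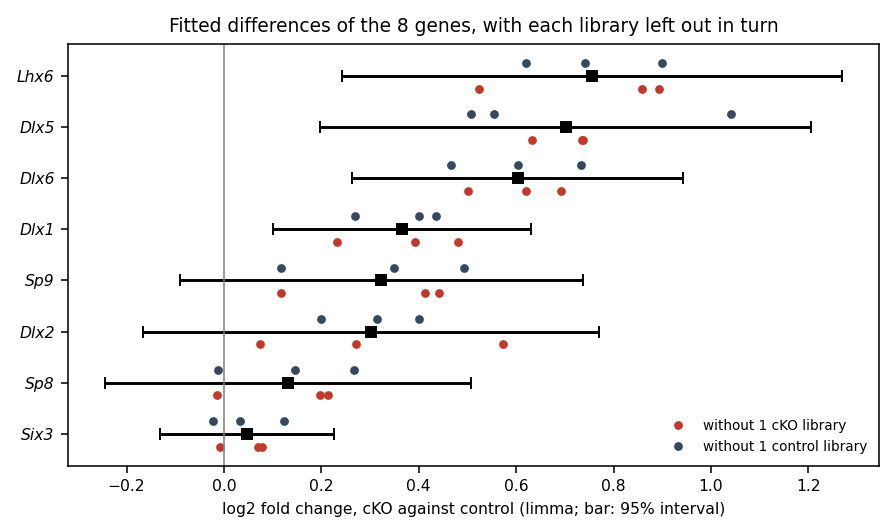
Fitted log2 fold changes of cKO against control from limma (horizontal axis) for the 8 genes (vertical axis), with squares for all 6 libraries, bars for the 95% interval, and points for the fits that left out 1 cKO library (red) or 1 control library (blue). The intervals of Lhx6, Dlx5, Dlx6 and Dlx1 lie above 0, whereas those of Sp9, Dlx2, Sp8 and Six3 include 0.

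Read by library, cKO replicate b had the highest level of 7 of the 8 genes, while 16.5% of all genes tested had their highest level there, and control replicate c had the highest level of Six3. The lowest level was in control replicate a for 3 genes, in control replicate b for 1 and in control replicate c for 4. Without cKO replicate b the median log2 fold change of the 8 was 0.17, and 3 genes (Dlx5 at 0.63, Dlx6 at 0.50 and Lhx6 at 0.52) had an unadjusted p-value under 0.05, where 1.41% of all genes tested were called higher. Without cKO replicate c, the library with the highest bone and mesenchyme sum, the median was 0.42 and 5 genes had an unadjusted p-value under 0.05, where 1.45% of all genes tested were called higher. Without control replicate a the count was 3 (Dlx1, Dlx6 and Lhx6), where 1.67% of all genes were called higher, and without control replicate c it was 2 (Dlx6 and Lhx6), where 0.772% were. Dlx6 and Lhx6 were thus the members called in each of these fits.

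Levels of different genes were compared only as normalized counts per kilobase of exon, by the group mean and its SD. In the cKO the order was Six3 (338 ± 23.3), Dlx1 (322 ± 57.0), Sp9 (184 ± 49.8), Dlx6 (158 ± 21.1), Dlx2 (133 ± 42.8), Dlx5 (115 ± 10.2), Sp8 (75.1 ± 14.3) and, lowest, Lhx6 (mean 45.6, libraries from 37.2 to 61.8). The control had the same order, from 329 ± 35.0 for Six3 and 246 ± 30.5 for Dlx1 to 68.1 ± 13.9 for Sp8 and 26.7 ± 5.69 for Lhx6. Six3 and Dlx1 overlapped in the cKO, where cKO replicate b had 365 for Six3 and 385 for Dlx1, but not in the control. Sp9 and Dlx6, Dlx6 and Dlx2, and Dlx2 and Dlx5 overlapped in both groups, and Dlx5 and Sp8 in the control only. Dlx1 lay above Sp9 and Sp8 above Lhx6 in all 6 libraries.

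The strand setting of the counting is not given in the sources used here, so reads over exons shared with a gene on the opposite strand could have been lost or assigned to either gene. Dlx1 shares 335 exon bases (6.21% of its exons) with Dlx1as, Dlx6 shares 104 (4.38%) with Dlx6os2, Sp9 shares 270 (5.35%) with Cir1, and Six3 shares 106 (1.95%) with Six3os1 and 168 (3.08%) with Gm28528. On the same strand, Lhx6 shares 104 (2.16%) with Gm27953, a small RNA gene with no row in the table used here. Dlx2, Dlx5 and Sp8 share none. The antisense partner of Dlx1, Dlx1as, had 83.4, 135 and 128 normalized counts in the cKO and 75.2, 110 and 83.2 in the control (log2 fold change 0.34, standard error 0.25). Dlx6os1, which lies across the Dlx6 locus without sharing exon bases and whose longer form is known as Evf2, had 348, 591 and 513 in the cKO and 434, 412 and 369 in the control (log2 fold change 0.20, standard error 0.17). Its cKO libraries lay both below and above the control range, unlike those of Dlx6. Over the 3 tested genes of the list of other Dlx genes and antisense partners (Dlx1as, Dlx6os1 and Six3os1) the median was 0.20, with 0.038 without cKO replicate b and 0.44 without cKO replicate a. The log2 fold changes of Six3os1 (0.0071, standard error 0.073), Gm28528 (-0.20, standard error 0.42) and Cir1 (-0.052, standard error 0.12) were within their errors, no partner tested had an unadjusted p-value under 0.05, and Dlx6os2 was read at 0 to 20.6 normalized counts, under the minimum mean for the test. Dlx3, a Dlx gene of skin and placenta, was at or below 4.32 normalized counts in every library.

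The genes around the 8 in the GABAergic programme were described by list. Among progenitor factors upstream of Dlx genes, 0 of 5 tested had an unadjusted p-value under 0.05, and the median log2 fold change was 0.0032. This median was 0.31 without control replicate a, and it was below 0 without cKO replicate b (-0.033) or control replicate b (-0.026). Pax6, the most abundant of them and a factor of dorsal and lateral progenitors, had 0.24 (standard error 0.15). Nkx2-1, which switches on Lhx6 in the medial eminence, had 870, 1249 and 1145 normalized counts in the cKO and 970, 360 and 1134 in the control, and the wide spread came from control replicate b. Gsx2, a factor of the lateral eminence, was read at 4.68, 6.34 and 9.74 in the cKO and 0.885, 3.84 and 2.16 in the control and was under the minimum mean.

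Of the 21 tested factors of forebrain GABAergic neurons reported here, 0 had an unadjusted p-value under 0.05, and the median was 0.051 (-0.0014 without control replicate c), with 12 of the 21 estimates above 0. Isl1, of striatal and other neurons, had 984, 1650 and 944 in the cKO and 901, 1044 and 755 in the control (0.36, standard error 0.19). Foxp2, the most abundant of the list and a factor of striatal and many midbrain neurons, had a log2 fold change of 0.065 (standard error 0.073). Lhx8, which acts beside Lhx6 in the medial eminence and its cholinergic neurons, was low, with 0.937, 28.5 and 2.16 in the cKO and 4.42, 11.5 and 0 in the control. Among the estimates below 0 were those of Etv1 (-0.29, standard error 0.17), Meis1 (-0.23, 0.20) and Npas1 (-0.14, 0.17). Sox6, which acts in medial eminence interneurons and also in dopaminergic neurons, had 997, 1104 and 1068 in the cKO and 1125, 1123 and 1168 in the control, lower in every cKO library than in any control library (-0.11, standard error 0.071).

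Genes for the GABA phenotype itself had fitted log2 fold changes from -0.19 to 0.078. Of the 5 genes of GABA synthesis and transport reported here, 0 had an unadjusted p-value under 0.05 and the median was -0.026, with values from -0.011 to 0.041 when a library was left out. Gad1, a GABA-synthesizing enzyme, had 6595, 6195 and 6194 normalized counts in the cKO and 6027, 6767 and 5889 in the control, or 0.026 on the log2 scale (standard error 0.057). Gad2, the other such enzyme and the most abundant of the 5, had a log2 fold change of 0.078 (standard error 0.064), and Slc32a1, the vesicular transporter, had -0.026 (0.087). The lowest was Slc6a11, a GABA transporter best known from astrocytes, with -0.19 (standard error 0.14) and -0.33 to -0.045 with a library left out. Among products of forebrain GABAergic neurons, 0 of 14 were higher and 1 lower at an unadjusted p-value under 0.05, with a median of 0.00079 (-0.059 to 0.054 with a library left out). The lower gene was Vip, a neuropeptide of a class of interneurons, at 11.2, 12.7 and 14.1 in the cKO and 28.3, 25.9 and 19.4 in the control (log2 fold change -0.94, standard error 0.41), and this call held only in the fit without control replicate c. Reln, the most abundant product and an extracellular guidance protein, had 0.010 (standard error 0.067). Of 6 genes for interneuron migration and signalling, 0 had an unadjusted p-value under 0.05, the median was -0.0080 (-0.070 to 0.026 with a library left out), and Nrp2, a semaphorin receptor and the most abundant, had -0.0044 (standard error 0.076). Cxcr4, a chemokine receptor that guides migrating interneurons, had 695, 875 and 868 in the cKO and 1047, 819 and 991 in the control (-0.24, standard error 0.12).

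Of 11 factors of midbrain GABAergic neurons, 1 was higher and 0 were lower at an unadjusted p-value under 0.05, and the median was -0.071. Lhx1, the most abundant of them, was the higher gene, with 4578, 5278 and 4889 normalized counts in the cKO and 4348, 4559 and 4371 in the control (log2 fold change 0.15, standard error 0.057), a call that was lost without cKO replicate b, control replicate a or control replicate c. Gata2 (0.036), Gata3 (0.0030) and Tal1 (-0.072) had standard errors of 0.12, 0.078 and 0.078. Helt (-0.40, standard error 0.33) and Tal2 (-0.14, standard error 0.33) were less certain, and Tal2 had 762, 357 and 225 normalized counts in the control. Of the 11 estimates, 5 lay above 0. The median of this list was 0.00040 without control replicate c, and the difference between it and the 8 genes was not tested.

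**Figure D3:**
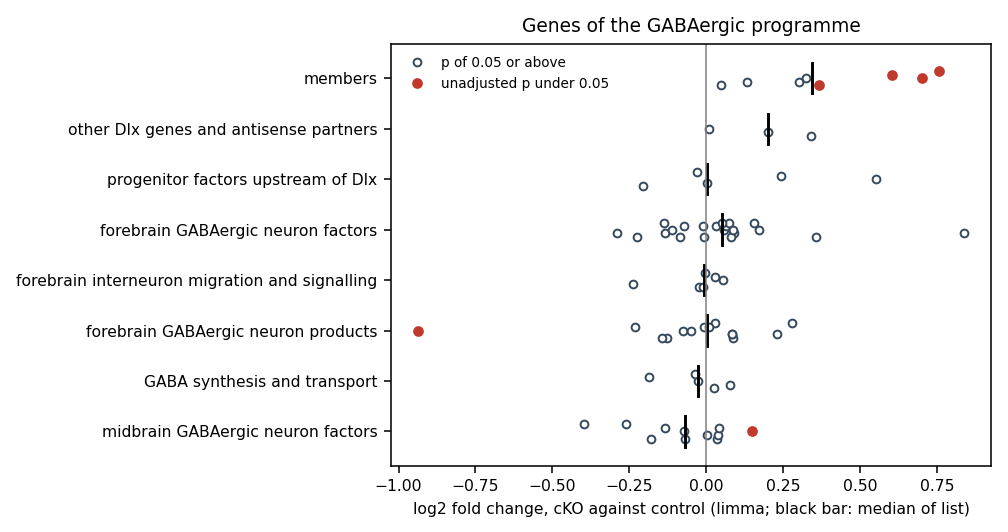
Fitted log2 fold changes of cKO against control from limma (horizontal axis) for the tested genes of each list of the GABAergic programme (rows), with filled red points for an unadjusted p-value under 0.05, open points for the others and a black bar at the median of the list. The median of the 8 members is 0.34, while the medians of the progenitor factors and the 5 lists of neurons below them lie between -0.071 and 0.051 with all 6 libraries. Without control replicate a the median of the progenitor factors is 0.31.

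Markers of forebrain tissue that border the midbrain or could be taken along with it are given beside the members. The telencephalon list had a summed level of 3905 to 4751 in the cKO libraries and 3601 to 4289 in the control libraries, and its median log2 fold change over 7 tested genes was 0.17 (0.064 without cKO replicate b and 0.064 without control replicate c). Without Lhx2, its most abundant gene, the sums were 2130, 2619 and 2351 in the cKO and 2604, 1944 and 2203 in the control, so that cKO replicate b and control replicate a lay close together. Of these, 1 was higher (Emx2, 0.21, standard error 0.096) and 1 lower (Bhlhe22, -0.27, standard error 0.097) at an unadjusted p-value under 0.05, and Lhx2, also a diencephalic gene, had 0.17 (standard error 0.11). Eomes, of intermediate cortical progenitors, was like Tbr1 highest in cKO replicate b, with 189 against 53.8 to 98.2 in the other libraries. Emx1 (56.0) and Lhx2 (2131) were also highest there. Other markers were highest elsewhere, with Neurod6, of cortical neurons, at 780 in control replicate a and 632 in cKO replicate b, Bhlhe22 at 823 in control replicate c and 680 in cKO replicate b, and Emx2 at 844 in cKO replicate c and 726 in cKO replicate b. The diencephalon and hypothalamus list had a summed level of 13388 to 14250 in the cKO and 12824 to 13050 in the control. Without Lhx9, its most abundant gene, the sums were 8124, 9126 and 8774 in the cKO and 8368, 7574 and 8792 in the control, so that the groups overlapped. The median of the list was 0.15 over 14 tested genes, 10 of them above 0. The median turned to -0.051 without control replicate b. Of these, 1 was higher and 0 were lower at an unadjusted p-value under 0.05. This was Sim1, a hypothalamic factor, with 964, 1051 and 1114 in the cKO and 899, 547 and 903 in the control (0.45, standard error 0.16). Gbx2, a thalamic factor, had 613, 815 and 435 in the cKO and 326, 622 and 375 in the control (0.51, standard error 0.24), and Lhx9 had 0.16 (standard error 0.095). Among those below 0, Sim2, a midline factor, had -0.41 (standard error 0.32), Hmx2, of the hypothalamus, -0.27 (0.35) and Irx3, a patterning factor, -0.22 (0.11). The part of forebrain tissue in the differences of the 8 genes was not tested. Of the telencephalon markers, cKO replicate b had the most Tbr1, Eomes, Emx1 and Lhx2 but not the most Neurod6, Bhlhe22 or Emx2. Without this library the estimates were 0.63 for Dlx5, 0.52 for Lhx6, 0.50 for Dlx6, 0.23 for Dlx1, 0.12 for Sp9, 0.074 for Dlx2, -0.0087 for Six3 and -0.015 for Sp8.

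**Figure D4:**
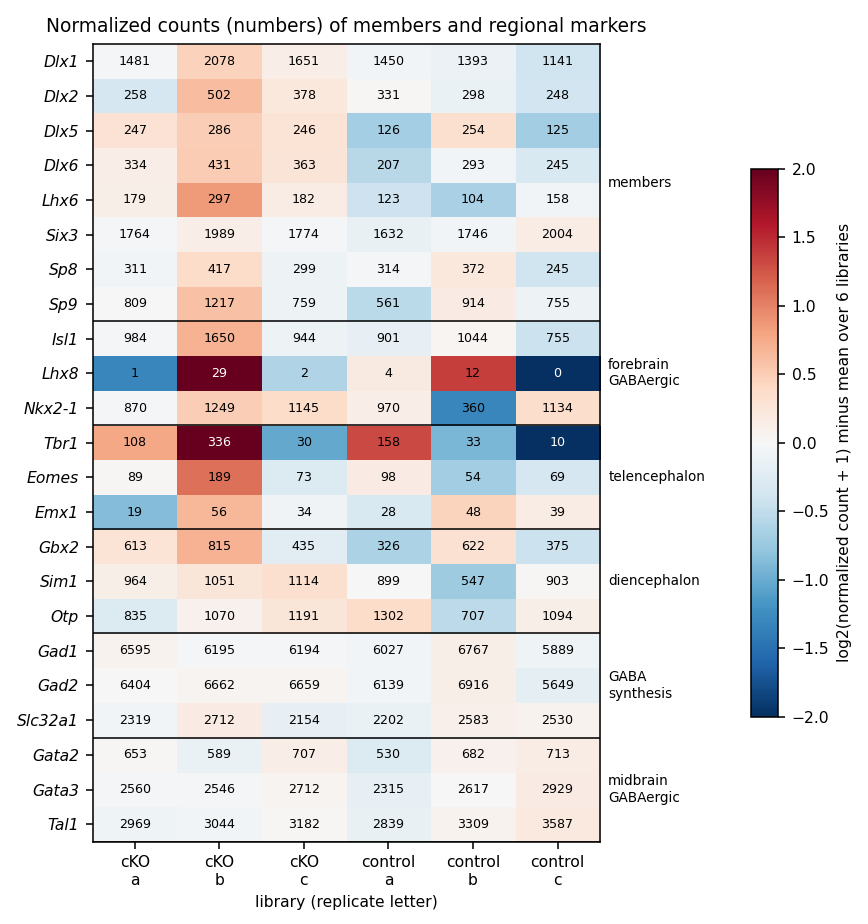
Normalized counts (printed numbers) of the 8 members and of forebrain, diencephalic and GABAergic genes (rows) in the 6 libraries (columns), coloured by the log2(normalized count + 1) minus the mean of the gene over the 6 libraries, from blue (-2) to red (2). The level in cKO replicate b is the highest for 7 of the 8 members and for Isl1, Lhx8, Nkx2-1, Tbr1, Eomes, Emx1 and Gbx2. Sim1 is highest in cKO replicate c and Otp in control replicate a. The rows for GABA synthesis and for Gata2, Gata3 and Tal1 are nearly white. Of the 11 midbrain GABAergic factors only Gata2, Gata3 and Tal1 are drawn, and not Tal2 (225 to 762 normalized counts) or Helt (24.3 to 43.3).

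In the midbrain list, 0 of 12 genes were higher and 3 were lower in the cKO at an unadjusted p-value under 0.05, with a median of -0.16. Of the 12, 1 (Otx2) had a fitted log2 fold change above 0, where all 8 members did. The 3 lower genes were En1 (-0.40, standard error 0.094) and En2 (-0.46, standard error 0.10), homeodomain factors of the midbrain and isthmus, and Pitx3 (-0.41, standard error 0.18). The calls of En1, En2 and Sim1 held in all 6 fits that left out a library. That of Pitx3 held without cKO replicate b or c and in no other. Those of Emx2 (without cKO replicate c, control replicate b or control replicate c) and Bhlhe22 (without cKO replicate a, control replicate a or control replicate c) were each lost in 3. The other lists of tissue that a dissection could hold were blood, in which 2 of 7 genes were higher at an unadjusted p-value under 0.05 (Hba-a1, 0.26, and Hbb-bs, 0.30), and bone and mesenchyme, in which 1 of 10 was (Col3a1, 1.84), with Col1a1 at 6097 in cKO replicate c. These were lost in 3 fits each, those of Hba-a1 without cKO replicate b, cKO replicate c or control replicate a, of Hbb-bs without cKO replicate c, control replicate a or control replicate b, and of Col3a1 without any of the control libraries. Of 7 vascular genes, 2 muscle genes and 1 pigment cell gene, 0 had an unadjusted p-value under 0.05. The medians were 0.30 for blood, 1.49 for bone and mesenchyme, 0.035 for vascular and -0.41 for muscle genes. That of bone and mesenchyme was 0.54 without cKO replicate c and 2.43 without cKO replicate b, and that of muscle was 0.34 without control replicate a. The genes Myod1, Myog, Ckm and Dct had at most 3 reads in every library. Rgs5, of pericytes, was the most abundant vascular gene at 2987 to 3514 normalized counts, Myh8 the most abundant muscle gene (7.40 to 91.1), and Mitf, of pigment cells, the tested gene of the retina and pigment cell list (28.1 to 47.8, log2 fold change -0.49, standard error 0.30). Dlx5, Dlx6 and Six3 are also expressed in bone or eye precursors. The member estimates without cKO replicate c, where bone genes were highest, were 0.74 for Dlx5, 0.62 for Dlx6 and 0.071 for Six3, a fit that kept cKO replicate a with its sum of 2476 for these markers. Without cKO replicate a they were 0.74, 0.69 and 0.078, a fit that kept cKO replicate c. For Dlx1, Dlx2, Lhx6, Sp8 and Sp9 the estimates were 0.39, 0.27, 0.86, 0.21 and 0.44 without cKO replicate c. Without cKO replicate a these were 0.48, 0.57, 0.89, 0.20 and 0.41. The part of bone tissue in the differences of the 8 genes was not tested.

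The genes whose levels were most like the mean profile of Dlx1, Dlx2, Dlx5 and Dlx6 were searched among 13550 genes with a mean of at least 50 normalized counts. Over the 6 libraries, on the centred log2(normalized count + 1) scale, these were Pop5 (Pearson r = 0.984), a subunit of RNase P, Dstyk (0.978), a kinase, Ube2l6 (0.978), a ubiquitin-conjugating enzyme, Dnajb5 (0.977), a heat shock cofactor, and Gm9294 (0.977). Of these 5 genes, 0 passed an unadjusted p-value of 0.05. Isl1 held place 74 (r = 0.880) and Dlx1as place 90 (0.874) in this order. For deviations from the group means the first 5 were Fan1 (0.997), a DNA repair nuclease, Ankrd50 (0.995), Adgrf5 (0.994), an adhesion receptor, Tnfaip3 (0.993), an inhibitor of NF-kappaB signalling, and 4833413G10Rik (0.991). By this measure Isl1 was at place 196, Dlx1as at 257, Dlx6os1 at 650 and Gbx2 at 838. With 6 libraries, which share their pools of embryos and depth across all genes, and so many genes searched, such values describe the profile only.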

How the data were processed

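RNA of midbrains dissected at E14.5 was extracted with Trizol and sequenced paired-end as 3 Lmx1b cKO and 3 control libraries. According to the submitters' notes, reads were handled with TopHat 1.0.14, Bowtie2 2.1.0, HTSeq 0.6.1p1 and DESeq 1.10.1 on GRCm38.p4, whereas the paper names DESeq2. The strand setting and the read filters are not given in the sources used here. The authors deposited a table of 26852 genes with the signal as group means and an overall mean of reads divided by the size factor of each library, together with 3 lines that name no gene (31.8% of the mean counts), which were left out. The authors' fold and p-value columns, from their own test, were not used.

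Reads per library were recovered by searching, for each group mean, the 3 whole numbers that give it, up to a sum of 30000 reads. Each of the 26248 genes recovered (97.8%) had a single answer in both groups, and 604 genes with more reads were left out. All 2443 cKO and 2472 control genes simulated were recovered correctly. The 1000 decoy values were split equally between the groups, and 1 for the cKO and 5 for the control had an answer. The recovered genes hold 66.4% of the normalized counts on genes, and recomputed size factors differed by at most 0.169%. The planned count tests on deposited counts could not be made, so the recovered reads of the 16573 genes with a mean of at least 10 were fitted with limma 3.58.1 (voom weights, genotype as the term in the model, R 4.3.3), with Benjamini-Hochberg adjustment over all of them. The fit was tested on simulated data with the same dispersion for every gene and no tissue differences between libraries. This checks the fitting steps and not the p-values for these libraries. Intervals are 95% intervals. Single genes were compared by exact permutation tests, two-sided. Gene models are from GENCODE M21 (26703 genes matched), and promoters are RefSeq. Python 3.11.15 was used with matplotlib 3.10.9, pandas 2.3.3, numpy 2.4.6, numba 0.67.0 and scipy 1.17.1.

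The members, lists and tests were chosen with earlier results of these data known. Named are all members, list genes with an unadjusted p-value under 0.05 (up to 4 in each list), the most abundant gene of each list, the 5 genes most like the Dlx profile by each measure, genes with shared exons and midbrain markers. Other genes, such as Tbr1, Eomes, Emx1, Neurod6, Isl1, Lhx8, Nkx2-1, Gsx2, Gbx2, Otp, Sim2, Hmx2, Irx3, Dlx3, Otx2, Gad1, Gad2, Slc32a1, Gata2, Gata3, Tal1, Tal2, Helt, Etv1, Meis1, Npas1, Sox6, Slc6a11, Cxcr4 and Col1a1, were named after their values were seen. A few genes of the lists are not reported here and were left out of the counts, medians and sums of their lists. Zfhx3, Robo1, Robo2 and Tcf7l2 were above the search limit. Alternatives were recomputed size factors, library totals, minimum means of 0, 50 and 100, limma-trend with pseudocounts of 1 and 10, and leaving out each library.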

Additional observations from a re-analysis of the deposited data

How the results depend on the processing

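With recomputed size factors, library totals as scaling, other minimum means and limma-trend with either pseudocount, each of the 8 genes kept its direction and its side of an unadjusted p-value of 0.05. The number of all genes under that value was 968 (447 higher, 521 lower) with no minimum mean and 302 (125 higher, 177 lower) with a minimum mean of 100, as more or fewer genes were tested. Leaving out each library in turn gave 339 to 637 genes (128 to 276 higher, or 0.772% to 1.67% of all genes tested, and 211 to 361 lower). It gave 0 to 3 genes with an adjusted p-value under 0.05 (3 without control replicate a). The unadjusted p-value was under 0.05 for 2 to 5 of the 8 members (2 without control replicate c). The groups did not overlap for 3 to 5 members (5 without control replicate b, where 8.52% of all genes were apart and higher in the cKO). Over the fits that left out a library, 7.09% to 10.1% of all genes tested were apart and higher in the cKO. The median of the members was from 0.17 to 0.53. Fitted log2 fold changes were 0.23 to 0.48 for Dlx1, 0.074 to 0.57 for Dlx2, 0.51 to 1.04 for Dlx5, 0.47 to 0.73 for Dlx6, 0.52 to 0.90 for Lhx6, -0.022 to 0.12 for Six3, -0.015 to 0.27 for Sp8 and 0.12 to 0.49 for Sp9. Six3 turned to -0.0087 without cKO replicate b and -0.022 without control replicate a, and Sp8 to -0.015 without cKO replicate b and -0.012 without control replicate c. The unadjusted call was lost for Dlx1 without cKO replicate b (0.23) or control replicate c (0.27) and for Dlx5 without control replicate a (0.51) or control replicate c (0.55), and it was gained for Dlx2 without cKO replicate a (0.57) and for Sp9 without cKO replicate c (0.44) or control replicate b (0.49). The causes were not tested.

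No paired analysis was possible because the recovered libraries cannot be tied to the replicate numbers in the header of the table. With 3 libraries a group, differences in genes of few reads, such as Lhx6 with 108 to 281 reads per library, are known only within wide intervals. The mean of all genes in a group is set by the size factors, so a change common to all genes cannot be seen.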
